A study of Mus musculus with 12 samples.

Results

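The 10 NRF2 antioxidant genes Hmox1, Nqo1, Gclm, Gclc, Srxn1, Txnrd1, Slc7a11, Prdx1, Gsr and Nfe2l2 were taken by symbol from the 41709 genes counted by RNA-seq in bone marrow-derived dendritic cells (BMDCs), and all 10 passed the filter on low counts in every comparison. BMDCs are antigen-presenting cells grown from mouse bone marrow, here for 10 days in medium with the growth factor GM-CSF, after which MHCII-positive cells were isolated with magnetic beads. The 4 groups held 3 libraries each, namely CD18fl/fl untreated, CD18fl/fl with LPS, CD18ΔCD11c untreated and CD18ΔCD11c with LPS. Both genotypes carried loxP-flanked alleles of CD18 (Itgb2, the beta2 integrin chain shared by all beta2 integrins), and CD18ΔCD11c mice in addition carried Cre recombinase under the CD11c promoter, so that deletion is limited to cells in which this promoter has been active. LPS (100 ng/mL), a bacterial cell wall component recognised by TLR4, was given for 24 h according to the library labels, whereas the study's methods describe overnight stimulation. The age of the mice is not given in the sources used here.

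NRF2, encoded by Nfe2l2, is a transcription factor that KEAP1 holds in the cytoplasm and delivers for degradation. Electrophiles and oxidants, which modify cysteines of KEAP1, let NRF2 accumulate and pair with small MAF proteins on antioxidant response elements of its target genes, while the repressor BACH1 occupies the same elements. The targets considered here break down haem (Hmox1), reduce quinones (Nqo1), import cystine and make or recycle glutathione (Slc7a11, Gclc, Gclm, Gsr), and run the thioredoxin and peroxiredoxin cycle (Txnrd1, Prdx1, Srxn1). In myeloid cells, several of these genes are also known targets of other factors, such as ATF4 for Slc7a11.

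In the deposited tables, whose gene regions match GRCm39, Nfe2l2 (ENSMUSG00000015839) on chr2:75505857-75534985, minus strand, Hmox1 (ENSMUSG00000005413) on chr8:75820249-75827217, plus strand and Nqo1 (ENSMUSG00000003849) on chr8:108114857-108129838, minus strand were given with Ensembl identifiers and positions. The glutathione genes were Slc7a11 (ENSMUSG00000027737) on chr3:49846975-50398063, minus strand, Gclc (ENSMUSG00000032350) on chr9:77661817-77701767, plus strand, Gclm (ENSMUSG00000028124) on chr3:122039206-122064381, plus strand and Gsr (ENSMUSG00000031584) on chr8:34142551-34188191, plus strand. The thioredoxin and peroxiredoxin genes were Txnrd1 (ENSMUSG00000020250) on chr10:82669785-82733546, plus strand, Prdx1 (ENSMUSG00000028691) on chr4:116542741-116558019, plus strand and Srxn1 (ENSMUSG00000032802) on chr2:151947436-151953296, plus strand. Values are reads over the whole gene, and between 97.9% and 100% of the reads of each gene mapped to a unique position.

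The start-proximal windows of the genes were searched for the core of the antioxidant response element, TGACNNNGC, on both strands, using GENCODE canonical start sites on the GRCm39 genome. Within 250 bases upstream, a match was present in 3 of 10 genes (Gclm, Txnrd1 and Prdx1) against 9.69% of 21770 promoters, and within 1000 bases in 6 of 10 against 28.2%. The variant TGANTCAGC, added after the first search had been seen, was found within 250 bases in Prdx1 and Srxn1, against 0.932% of promoters. In both genes this match overlaps an AP-1 element (TGACTCA), which 4.02% of promoters hold in the same window. The 4 matches nearest to a start site are shown with 16 bases on either side, because they are the closest to a start among the 10 genes, and capitals mark the matched core as read on the gene's strand.
Prdx1, chr4:116542647-116542687, plus strand: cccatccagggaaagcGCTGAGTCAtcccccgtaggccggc
Srxn1, chr2:151947383-151947423, plus strand: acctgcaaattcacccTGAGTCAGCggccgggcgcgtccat
Gclm, chr3:122039056-122039096, plus strand: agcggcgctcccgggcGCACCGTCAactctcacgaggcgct
Txnrd1, chr10:82694932-82694972, plus strand: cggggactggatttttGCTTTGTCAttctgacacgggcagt
The core lay at -78 to -70 from the start in Prdx1, -45 to -37 in Srxn1, -54 to -46 in Gclm and -65 to -57 in Txnrd1. The Txnrd1 window is inside the deposited gene region, which begins further upstream. More distant matches lay in Gsr, Nfe2l2 and Slc7a11, whereas the 1000 bases upstream of Hmox1, Nqo1 and Gclc held none of the 3 motifs. No binding was measured, and a match only describes these letters.

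**Figure D1:**
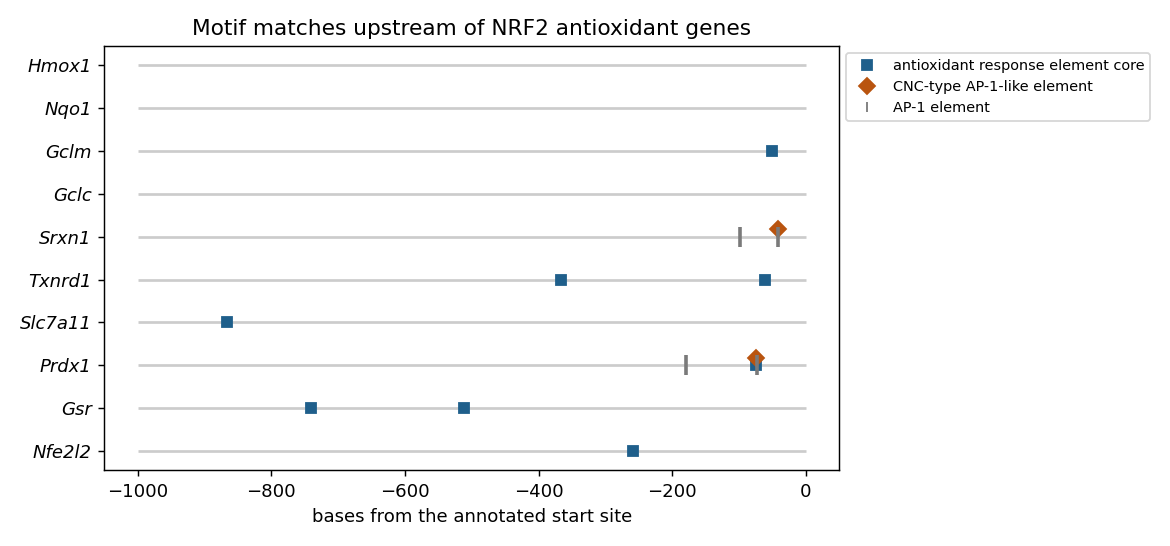
Motif matches in the 1000 bases upstream of the annotated start site of each of the 10 genes (x axis, bases from the start; y axis, genes). Blue squares mark TGACNNNGC, orange diamonds TGANTCAGC and grey ticks TGACTCA. Matches within 100 bases of the start are seen for Gclm, Srxn1, Txnrd1 and Prdx1.

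Total gene reads ranged from 29689149 to 34037178 per library, and 3 reads, taken as the floor, equalled 0.0881 to 0.101 CPM, that is counts scaled to the library total, and for gene levels also by TMM factors. As PCR copies were not told apart by molecular identifiers, the floor covers counting error only. The targeted gene Itgb2 was measured at 382, 420.2 and 379 CPM in untreated CD18fl/fl and 120.5, 163 and 189 CPM in untreated CD18ΔCD11c libraries, a log2 difference of -1.26 ± 0.23 (SE) that missed the threshold (edgeR adjusted p = 0.0887). Under LPS the values were 167, 171 and 267 against 114, 89.7 and 119 CPM, with no overlap between genotypes in either state. Replicate 3 stood apart from replicates 1 and 2 in each group, with chi-squared per degree of freedom over all genes of 391 to 584 against 46.6 to 150 between replicates 1 and 2. The 12 dendritic cell markers listed summed to 16517 to 48419 CPM, and the 14 macrophage and monocyte markers to 2890 to 7363 CPM. The dendritic cell list includes MHCII genes such as H2-Ab1 (4238 to 13259 CPM). As the cells were selected for MHCII, this sum does not test their identity. Nothing states whether replicates came from separate mice or cultures, so p-values measure only the spread between these libraries. In bulk RNA, fewer cells expressing a gene and less RNA per cell cannot be told apart.

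Levels were compared per transcript length as TPM, the deposited values in which reads per exon length are scaled to a common total. Prdx1 was the most abundant of the 10 genes in every group, followed by Hmox1 by median. In untreated CD18ΔCD11c libraries, the range of Hmox1 (42 to 133 TPM) overlapped that of Nfe2l2 (49.6 to 61.3 TPM). In untreated CD18fl/fl libraries, Prdx1 reached 1242 to 2051 TPM and Hmox1 129 to 254 TPM. Nfe2l2 at 91.2 to 101 TPM followed Hmox1 by median, and its range did not overlap those of its neighbours Hmox1 and Srxn1 (64.8 to 86.2 TPM). It did overlap those of the lower-ranked Txnrd1 (61.6 to 95.7 TPM) and Nqo1 (26.7 to 104 TPM). The ranges of Srxn1 and Txnrd1 overlapped, as did those of Gsr and Gclm, of Gclm and Nqo1, and of Nqo1 and Slc7a11. Gclc, the catalytic subunit of glutamate-cysteine ligase, was lowest at 12.9 to 20.2 TPM, with no overlap with Slc7a11. After LPS, Srxn1, Txnrd1 and Nqo1 had higher medians than Nfe2l2 in CD18fl/fl, and Nqo1 ranked next to Hmox1 in CD18ΔCD11c at a median of 183 TPM. Gsr had the lowest median, 14.1 TPM, in LPS-treated CD18ΔCD11c libraries, where its range overlapped that of Gclc.

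**Figure D2:**
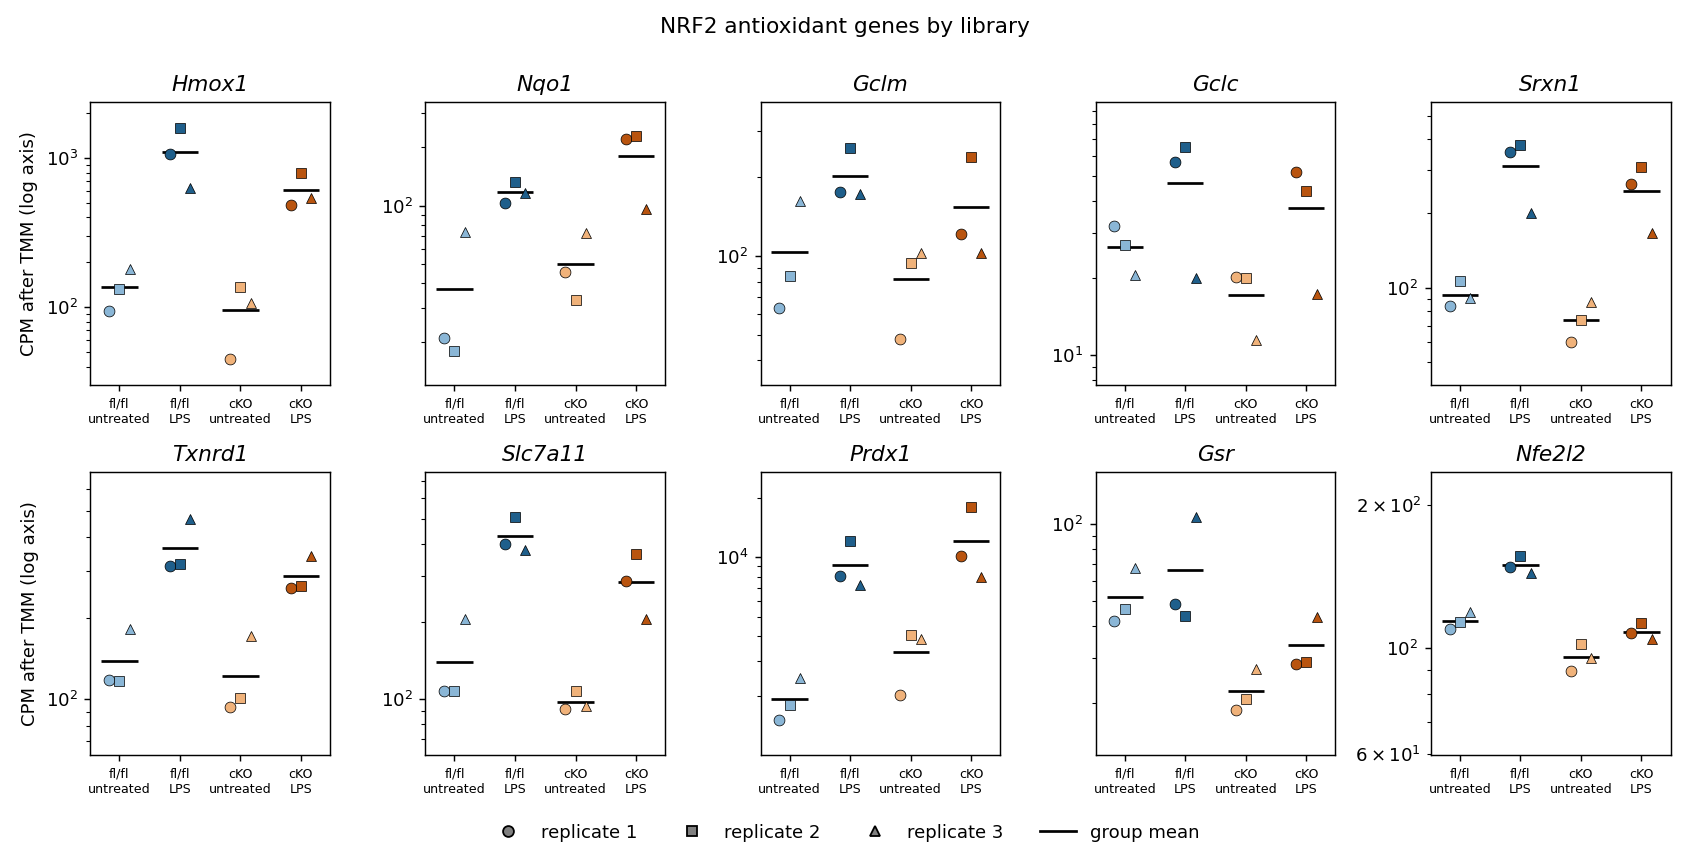
Level of each of the 10 genes in each library, as CPM after TMM scaling over all 12 libraries (log axis); cKO denotes CD18ΔCD11c. Symbols mark the replicate number and bars the mean of 3 libraries. Hmox1, Srxn1, Slc7a11, Txnrd1, Nqo1, Prdx1 and Gclm were higher in all LPS libraries than in all untreated libraries of the same genotype. For Gclm in CD18ΔCD11c the margin was narrow (103.07 against 102.79 CPM). Gsr was lower in CD18ΔCD11c than in CD18fl/fl in both states.

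LPS was compared with no treatment within each genotype to describe how the antioxidant genes respond to stimulation. In CD18fl/fl BMDCs, 4 of the 10 genes rose, namely Hmox1, Prdx1, Srxn1 and Slc7a11, and 0 fell, when 2.06% of the 12744 genes tested rose and 1.83% fell. In CD18ΔCD11c BMDCs, Hmox1, Srxn1 and Slc7a11 rose and 0 fell, against 2.23% of 12687 genes that rose and 1.76% that fell. The median log2 fold change of the 10 genes was 1.51 in CD18fl/fl and 1.34 in CD18ΔCD11c, against -0.02 and -0.01 over all genes tested. As the 10 genes were chosen with earlier results of these data known, such contrasts with all genes are descriptions and test nothing. All LPS libraries lay above all untreated ones for 8 of 10 genes in CD18fl/fl and 9 of 10 in CD18ΔCD11c, where 13.6% and 14.8% of genes did so. In CD18ΔCD11c this held narrowly for Gclm (lowest LPS library 103.07 against highest untreated 102.79 CPM) and for Nfe2l2 (104.7 against 101.8 CPM). With replicate numbers as a block, 6 genes rose in CD18fl/fl (against 6.33% of all genes) and 7 in CD18ΔCD11c (against 10.2%). When library sizes replaced TMM factors, the median of all genes moved to -0.32 in CD18fl/fl and -0.23 in CD18ΔCD11c, the numbers of genes that rose and fell changed from 263 and 233 to 143 and 304 in CD18fl/fl, and from 283 and 223 to 186 and 300 in CD18ΔCD11c, and 3 of the 10 genes rose in each genotype (against 1.12% and 1.47% of all genes).

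The calls without the block depended on single libraries. In either genotype, 0 of the 10 genes passed when any one library of replicate 1 or 2 was left out, settings in which 0 of all genes passed in CD18fl/fl and 0 to 26 in CD18ΔCD11c. Without untreated replicate 3, 5 of the 10 rose in CD18fl/fl (against 1.89% of all genes) and 2 in CD18ΔCD11c (against 1.49%). Without LPS replicate 3, 6 of the 10 rose in each genotype, against 12.2% of all genes in CD18fl/fl and 4.12% in CD18ΔCD11c.

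Nfe2l2 itself did not pass the test in response to LPS, with or without the block. Its level was 109, 114 and 119 CPM in untreated and 148, 156 and 144 CPM in LPS-treated CD18fl/fl libraries, a log2 difference of 0.40 ± 0.21 (edgeR adjusted p = 0.293, range over all alternatives 0.0329 to 0.843). In CD18fl/fl, Nfe2l2 passed in 1 of 19 alternatives, that of replicates 1 and 2 alone. In CD18ΔCD11c the values were 89.5, 102 and 95.4 CPM untreated and 108, 113 and 105 CPM with LPS, with a log2 difference of 0.13 ± 0.21 (adjusted p = 0.772), which turned to -0.0797 under library size scaling. The LPS libraries lay above the untreated ones in both genotypes on this scale, whereas the TPM ranges of Nfe2l2 overlapped, at 91.2 to 101 and 93.8 to 110 TPM in CD18fl/fl. Keap1, the adaptor that targets NRF2 for degradation, rose in CD18fl/fl from 29.7, 30.6 and 33 to 70.2, 68.5 and 64.9 CPM (log2 fold change 1.13 ± 0.20, adjusted p = 0.034). In CD18ΔCD11c, Keap1 had a similar log2 difference of 1.16 ± 0.28 that passed only with the block (adjusted p = 0.0668 without and 0.00738 with it). Bach1, the repressor at the same elements, was measured at 51.4, 58.2 and 31.1 CPM untreated and 25.3, 22.9 and 24.7 CPM with LPS in CD18fl/fl, and at 32, 31.2 and 23.5 and 13.3, 12.1 and 15.9 CPM in CD18ΔCD11c. The groups did not overlap in either genotype, with log2 differences of -0.94 ± 0.28 (adjusted p = 0.11) and -1.11 ± 0.26 (adjusted p = 0.0625, and 0.0213 with the block).

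Hmox1, which opens the haem ring to release iron, biliverdin and carbon monoxide, had the largest log2 fold change among the 10 genes in both genotypes. It was measured at 94.7, 132 and 181 CPM in untreated and at 1062, 1583 and 633 CPM in LPS-treated CD18fl/fl libraries. The LPS groups lay far above the untreated ones, with replicate 3 the lowest after LPS and the highest without it. This gave an 8.06-fold rise (log2 fold change 3.01 ± 0.44, edgeR adjusted p = 0.02). In CD18ΔCD11c, Hmox1 went from 45.1, 138 and 107 CPM to 486, 791 and 544 CPM, a 6.04-fold rise (log2 fold change 2.59 ± 0.46, adjusted p = 0.0339). Among the genes for haem breakdown and iron, which include the ferritin chains Fth1 and Ftl1 and the biliverdin reductases (products or partners of the Hmox1 reaction), 0 of 9 passed in either genotype, when 3.89% of all genes did in CD18fl/fl and 3.99% in CD18ΔCD11c. With the block, Fth1 and Blvrb, named here after their values were seen, rose in both genotypes, with log2 fold changes of 1.09 and 1.11 in CD18fl/fl and 1.07 and 0.83 in CD18ΔCD11c, and Aco1, an iron-responsive aconitase, fell in CD18ΔCD11c by 0.87 on the log2 scale.

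Nqo1, a quinone reductase, was measured at 20.9, 18 and 73.2 CPM in untreated and 104, 132 and 117 CPM in LPS-treated CD18fl/fl libraries. The untreated replicate 3 stood well above the other untreated libraries, yet all LPS libraries were higher still. The log2 difference of 1.66 ± 0.55 did not pass (adjusted p = 0.135), and with the block it was 1.97 (adjusted p = 0.0415, range over all alternatives 1.04e-06 to 0.347). In CD18ΔCD11c, levels were 45.7, 32.9 and 72.4 CPM untreated and 219.9, 227 and 96.4 CPM with LPS, and the log2 difference of 1.78 ± 0.42 again passed only with the block (adjusted p = 0.0621 without and 0.0295 with it, range over all alternatives 2.74e-05 to 0.213). Nqo2, a related reductase that uses other electron donors, fell in both genotypes, with log2 fold changes of -1.97 ± 0.34 (adjusted p = 0.0336) and -1.77 ± 0.24 (adjusted p = 0.0203).

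Within glutathione metabolism, the cystine importer rose in both genotypes, while Gclc, Gclm and Gsr did not pass without the block. Slc7a11, the light chain of the cystine-glutamate exchanger, was measured at 107, 108 and 204 CPM untreated and 401, 506 and 379 CPM with LPS in CD18fl/fl, a 3.08-fold rise (log2 fold change 1.62 ± 0.34, adjusted p = 0.049). In CD18ΔCD11c it went from 91.5, 108 and 94.5 to 286, 366 and 204 CPM, a 2.8-fold rise (log2 fold change 1.49 ± 0.27, adjusted p = 0.0363). Its partner Slc3a2, the heavy chain of the transporter, had log2 differences of 1.01 ± 0.30 (adjusted p = 0.108) and 0.84 ± 0.26 (adjusted p = 0.124). Gclc, the catalytic subunit of the ligase that makes gamma-glutamylcysteine, was measured at 31.9, 26.9 and 20.6 CPM untreated and 56.6, 64.8 and 20 CPM with LPS in CD18fl/fl, where replicates 1 and 2 were higher with LPS and replicate 3 was not. In CD18ΔCD11c, the values were 20.1, 20 and 11.4 and 51.9, 43.7 and 17.3 CPM, and all 3 same-numbered pairs were higher with LPS. The log2 differences of Gclc were 0.84 ± 0.44 in CD18fl/fl (adjusted p = 0.295) and 1.06 ± 0.43 in CD18ΔCD11c (adjusted p = 0.21, and 0.0196 with the block, range over all alternatives 0.00217 to 0.492). Gclm, the modifier subunit of the same enzyme, had log2 differences of 0.97 ± 0.40 in CD18fl/fl (adjusted p = 0.198) and 0.85 ± 0.42 in CD18ΔCD11c (adjusted p = 0.299). In replicate 3 the level of Gclm was nearly equal with and without LPS, at 163 and 172 CPM in CD18fl/fl and 103 CPM in both states of CD18ΔCD11c. The ratio of Gclm to Gclc TPM ranged from 1.12 to 1.80 in replicate 1 and from 3.55 to 5.10 in replicate 3 over the 4 groups. Gsr, which regenerates reduced glutathione, was measured at 42, 46.7 and 67.3 CPM untreated and 48.8, 43.7 and 106 CPM with LPS in CD18fl/fl. These groups overlapped, and the log2 difference was 0.36 ± 0.40 (adjusted p = 0.621), turning to -0.0567 under library size scaling with the block. In CD18ΔCD11c, Gsr was at 18.9, 20.7 and 27.2 and 28.5, 29.1 and 43.5 CPM, a log2 difference of 0.56 ± 0.30 (adjusted p = 0.336).

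The thioredoxin and peroxiredoxin genes were higher with LPS in every same-numbered pair of libraries. Prdx1, a peroxiredoxin that reduces hydrogen peroxide, was measured at 1521, 1799 and 2476 CPM in untreated and 8018, 12078 and 7282 CPM in LPS-treated CD18fl/fl libraries, a 4.74-fold rise (log2 fold change 2.25 ± 0.34, adjusted p = 0.0225). In CD18ΔCD11c, the values were 2023, 4051 and 3890.3 CPM untreated and 10100.5, 17959 and 8003 CPM with LPS, and the log2 difference of 1.79 ± 0.41 passed only with the block (adjusted p = 0.0606 without and 0.00596 with it, range over all alternatives 0.000922 to 0.187). Srxn1, sulfiredoxin, which repairs overoxidised peroxiredoxins, went from 83.8, 106 and 90.7 to 357, 378 and 201 CPM in CD18fl/fl and from 60.2, 74 and 87.4 to 264, 310.1 and 167 CPM in CD18ΔCD11c. Replicate 3 was lowest after LPS in both genotypes, still above every untreated library. The rises were 3.34-fold in CD18fl/fl (log2 fold change 1.74 ± 0.31, adjusted p = 0.036) and 3.2-fold in CD18ΔCD11c (log2 fold change 1.68 ± 0.30, adjusted p = 0.0343). Txnrd1, the cytosolic thioredoxin reductase, was measured at 118, 117 and 182 CPM untreated and 313, 317 and 465 CPM with LPS in CD18fl/fl, and at 93.4, 101 and 172 and 258, 263 and 341 CPM in CD18ΔCD11c. Here replicate 3 was the highest library in every group. The log2 differences of Txnrd1, 1.40 ± 0.31 in CD18fl/fl (adjusted p = 0.056) and 1.19 ± 0.32 in CD18ΔCD11c (adjusted p = 0.0886), passed with the block (adjusted p = 0.0126 and 0.00571, ranges over all alternatives 6e-07 to 0.245 and 3.2e-08 to 0.271).

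**Figure D3:**
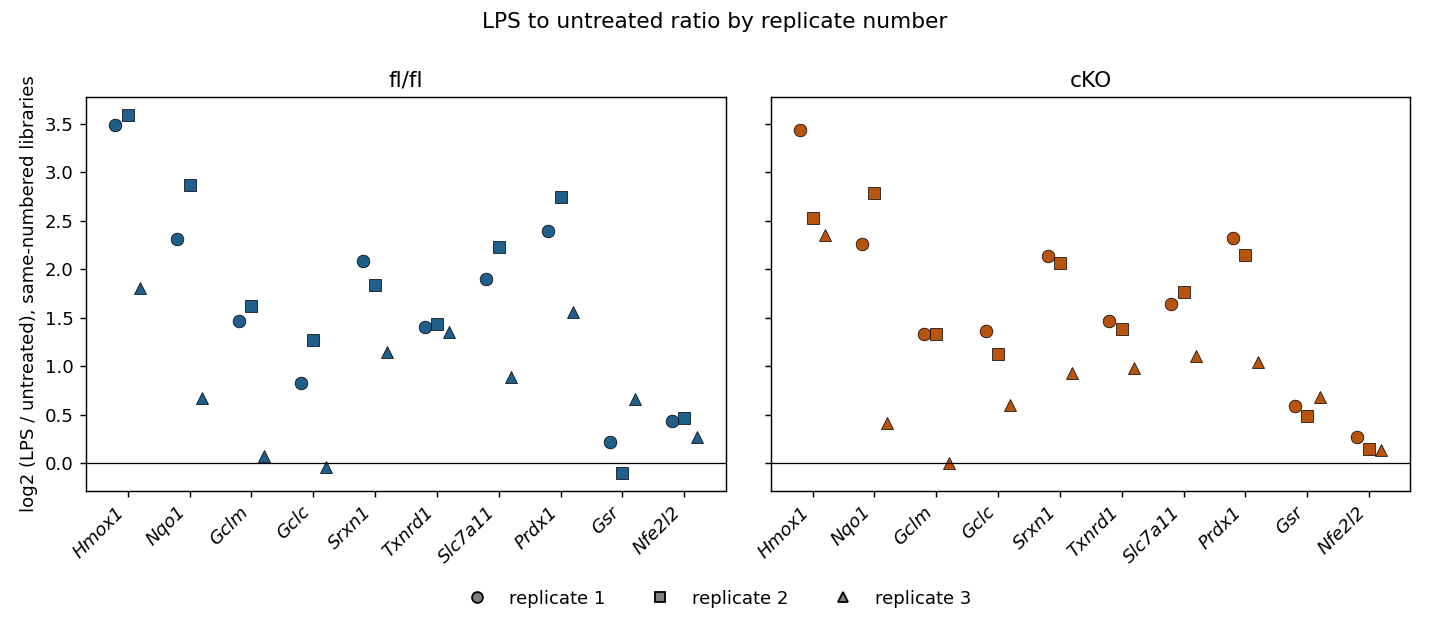
Log2 ratio of LPS to untreated CPM for same-numbered libraries of CD18fl/fl (left) and CD18ΔCD11c (right, cKO), one symbol per replicate number; the line marks no difference. Replicate 3 had the lowest ratio for Hmox1, Nqo1, Gclm, Gclc, Srxn1, Txnrd1, Slc7a11, Prdx1 and Nfe2l2 in both genotypes, and the highest for Gsr.

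Same-numbered libraries showed how evenly the response was spread. The log2 ratios of LPS to untreated Hmox1 were 3.49, 3.59 and 1.80 for replicates 1, 2 and 3 of CD18fl/fl and 3.43, 2.52 and 2.35 for those of CD18ΔCD11c. For Nqo1 they were 2.31, 2.87 and 0.67 in CD18fl/fl and 2.26, 2.79 and 0.41 in CD18ΔCD11c, so that replicate 3 had by far the smallest ratio. For Txnrd1 the ratios were more even, at 1.41, 1.43 and 1.35 in CD18fl/fl and 1.46, 1.38 and 0.99 in CD18ΔCD11c. When replicates 1 and 2 alone were compared, 9 of the 10 genes rose in CD18fl/fl and 7 in CD18ΔCD11c, while 3000 (23.2%) and 1021 (7.93%) of all genes rose. Markers of other cells also differed between these libraries. The 12 neutrophil markers listed summed to 13.4 to 1339 CPM in untreated CD18fl/fl and 13.3 to 197 CPM in untreated CD18ΔCD11c libraries, against 18.03 to 70.6 CPM with LPS. The highest sum was that of replicate 1, with S100a8 at 439, 37.4 and 8.23 CPM in replicates 1, 2 and 3. Replicate 3 had the lowest Apoe and Kit and the highest C1qa and Cpa3 of each group. In untreated CD18fl/fl, Apoe was at 2359, 2476 and 4.70 CPM and Cpa3 at 2.61, 2.28 and 34.9 CPM. In untreated CD18ΔCD11c libraries, mast cell and basophil markers summed to 37.4 to 169 CPM and B and T cell markers to 2.8 to 148 CPM. In untreated CD18fl/fl libraries these sums were 43.9 to 86.7 and 9.59 to 117 CPM. Of the 14 macrophage and monocyte markers 4 fell and 0 rose with LPS in each genotype, when 1.83% and 1.76% of all genes fell. Of the 12 dendritic cell markers, 1 rose and 1 fell in CD18fl/fl, and 1 rose and 0 fell in CD18ΔCD11c. Intron reads made up 1.91 to 2.30% of gene reads in untreated and 2.39 to 4.54% in LPS-treated libraries. The part of these differences in the results was not tested.

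Genotypes were compared within each state to describe the antioxidant genes in CD18ΔCD11c cells, in which Itgb2 reads were lower but not absent. Without LPS, 0 of the 10 genes and 0% of the 12876 genes tested passed edgeR's test without the block, with 2159 genes (16.8%) at an unadjusted p under 0.05, 2 of them among the 10. DESeq2 called 491 genes higher (5.5%) and 47 lower (0.527%) in CD18ΔCD11c, among them Gsr (log2 difference -1.17). With the replicate block, Prdx1 was higher and Gsr and Gclc were lower in CD18ΔCD11c, when 12.1% of all genes were called higher and 8.16% lower. With LPS, again 0 of the 10 and 0% of 12441 genes passed edgeR's test, with 1212 genes (9.74%) at an unadjusted p under 0.05, 2 of them among the 10, while DESeq2 called 141 genes higher (1.22%) and 9 lower (0.078%) and none of the 10. The block then called Gsr, Hmox1 and Slc7a11 lower in CD18ΔCD11c, against 3.16% of genes lower and 6.98% higher. In both states 8 of the 10 log2 differences were negative, with medians of -0.28 without and -0.40 with LPS, against -0.05 and -0.11 over all genes. Of all genes tested, 47.3% had a positive difference without LPS and 43.1% with it. Library size scaling moved the medians of all genes to -0.44 and -0.37. Under that scaling with the block, 8 of the 10 genes were lower and 0 higher in each state, in place of 2 lower and 1 higher without LPS and 3 lower and 0 higher with it, while over all genes the numbers higher and lower became 701 and 3882 (30.1% lower) in place of 1555 and 1051 without LPS, and 590 and 2052 (16.5% lower) in place of 869 and 393 with it.

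Gsr differed most between genotypes. All CD18ΔCD11c libraries lay below all CD18fl/fl libraries in each state, at 18.9, 20.7 and 27.2 against 42, 46.7 and 67.3 CPM without LPS and at 28.5, 29.1 and 43.5 against 48.8, 43.7 and 106 CPM with it. Non-overlapping groups with CD18ΔCD11c lower were seen for 3 of the 10 genes in each state (Gsr, Gclc and Nfe2l2 without LPS, and Gsr, Slc7a11 and Nfe2l2 with it), against 13.1% and 8.09% of all genes. The log2 differences of Gsr were -1.16 ± 0.25 without LPS (edgeR adjusted p = 0.117, and 0.00324 with the block, range over all alternatives 1.55e-07 to 0.522) and -1.002 ± 0.41 with LPS (adjusted p = 0.503, and 0.0252 with the block, range over all alternatives 0.000432 to 0.947). Gclc had a log2 difference of -0.57 ± 0.30 without LPS (adjusted p = 0.388, and 0.0392 with the block, range over all alternatives 0.00884 to 0.705). Prdx1 was on the other side, with a log2 difference of 0.85 ± 0.33 without LPS (adjusted p = 0.272, and 0.0259 with the block, range over all alternatives 0.000141 to 0.658) and overlapping groups. Its lowest CD18ΔCD11c library, replicate 1, lay between the CD18fl/fl libraries.

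With LPS, Hmox1 was at 486, 791 and 544 CPM in CD18ΔCD11c against 1062, 1583 and 633 CPM in CD18fl/fl, where only the highest CD18ΔCD11c library exceeded the lowest CD18fl/fl library. Its log2 difference of -0.87 ± 0.39 did not pass (adjusted p = 0.536), and with the block it was -0.81 (adjusted p = 0.0472, range over all alternatives 0.00137 to 0.934). Slc7a11 was lower in every LPS-treated CD18ΔCD11c library than in any LPS-treated CD18fl/fl library, with a log2 difference of -0.62 ± 0.29 (adjusted p = 0.559, and 0.0375 with the block, range over all alternatives 0.0026 to 0.934). Nfe2l2 did not overlap between genotypes either, with log2 differences of -0.20 ± 0.17 without LPS (adjusted p = 0.592, range over all alternatives 0.0136 to 0.831) and -0.49 ± 0.20 with it (adjusted p = 0.503, range over all alternatives 0.017 to 0.934). Keap1 and Bach1, on either side of NRF2, had negative differences too. For Keap1 they were -0.59 ± 0.21 without LPS (adjusted p = 0.244, and 0.0366 with the block) and -0.60 ± 0.23 with it (adjusted p = 0.493). For Bach1 they were -0.65 ± 0.29 (adjusted p = 0.317, and 0.0337 with the block) and -0.84 ± 0.23 (adjusted p = 0.387, and 0.0244 with the block). The remaining members, Nqo1, Gclm, Srxn1 and Txnrd1, passed in neither state with or without the block.

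**Figure D4:**
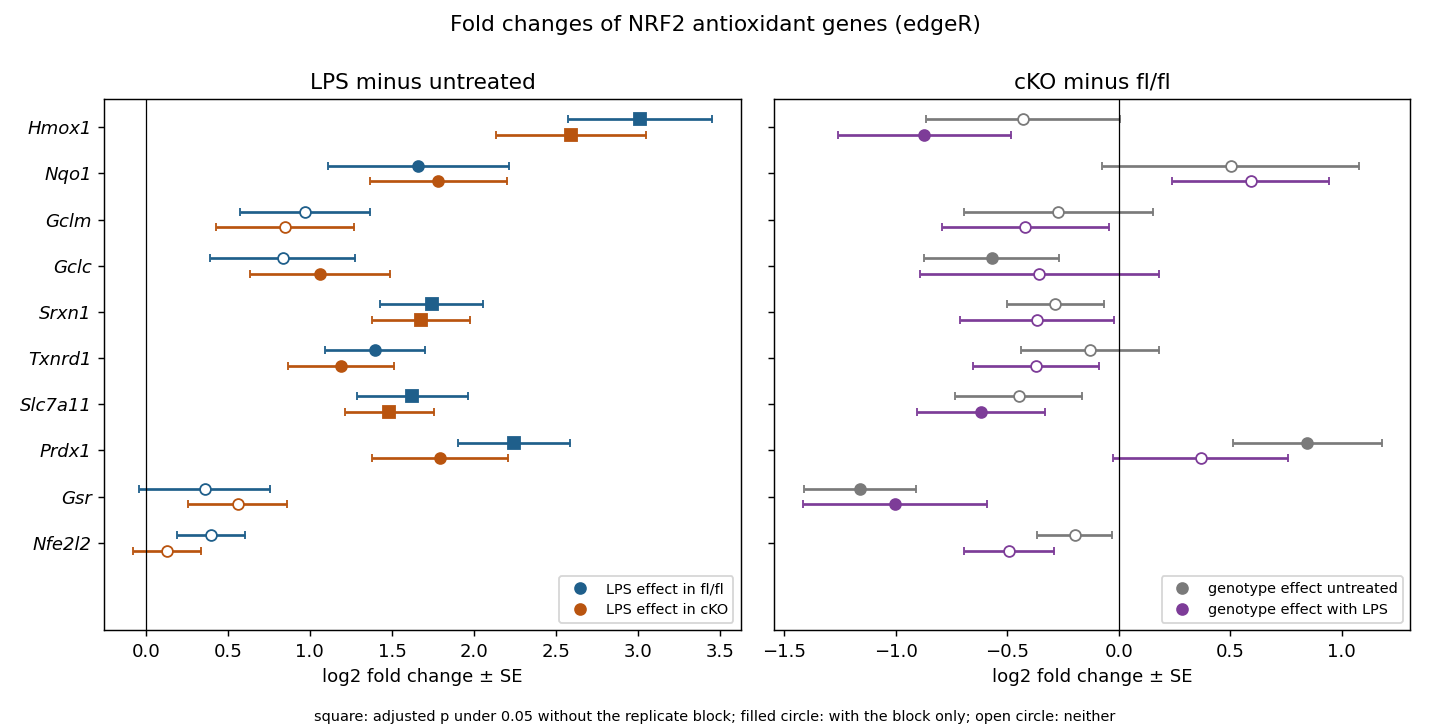
Log2 fold change ± SE of the 10 genes by edgeR for LPS against untreated in each genotype (left) and for CD18ΔCD11c (cKO) against CD18fl/fl in each state (right), 3 libraries per group. Squares mark adjusted p under 0.05 without the replicate block, filled circles with the block only, and open circles neither. All 10 values on the left are above 0, with Nfe2l2 in CD18ΔCD11c at 0.13 turning to -0.0797 under library size scaling and Gsr in CD18fl/fl at 0.36 turning to -0.0567 when the block is added to it, and 8 of 10 on the right are below 0 in each state. Of all genes tested, 49.2% (CD18fl/fl) and 49.1% (CD18ΔCD11c) were above 0 for LPS. For genotype, 47.3% without and 43.1% with LPS were above 0.

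Whether the LPS response differed between genotypes was tested by the interaction over all 12 libraries. None of the 10 genes and 0% of 13752 genes passed edgeR's test, whether or not the block was fitted. An unadjusted p under 0.05 was reached by 97 genes (0.705%) in the fit without block and by 272 (1.98%) in the blocked fit, 0 of them among the 10 in either case. DESeq2 called 1 gene without the block, and 79 higher and 51 lower of 20634 (0.63%) with it, none of them among the 10. The interaction of Hmox1 was -0.35 on the log2 scale (95% interval -1.72 to 1.01), that of Prdx1 -0.38 (-1.57 to 0.80) and that of Slc7a11 -0.0729 (-1.01 to 0.86). Nfe2l2 had the narrowest interval, -0.21 (-0.73 to 0.31). Of the 10 genes, only Srxn1 (-0.93 to 0.93) and Nfe2l2 had intervals that stayed within a log2 of 1 in both directions. The intervals of the other genes do not exclude a difference in response that large.

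Intron reads, which include unspliced transcripts, gave a separate readout of the same genes at much lower counts. Without the block, 0 of the 10 genes passed for LPS in either genotype, when 0.606% of 7263 genes with enough intron reads were called in CD18fl/fl and 0.3% of 6662 in CD18ΔCD11c, and with it the figures were again 0 of 10, against 2.49% and 2.45%. Slc7a11 had 77 to 180 intron reads in untreated and 330 to 662 in LPS-treated CD18fl/fl libraries, and 53 to 145 and 251 to 303 in CD18ΔCD11c. The log2 differences of its intron reads, 1.93 ± 0.54 in CD18fl/fl (edgeR adjusted p = 0.172) and 1.52 ± 0.48 in CD18ΔCD11c (adjusted p = 0.334), were close to those of its total reads. For Hmox1 the intron differences were 1.54 ± 0.50 in CD18fl/fl (adjusted p = 0.253) and 1.56 ± 0.47 in CD18ΔCD11c (adjusted p = 0.286), below those of its total reads. For Gclm they were -0.0704 ± 0.50 and -0.25 ± 0.48 (adjusted p = 0.985 and 0.96). The difference between the 2 readouts was not tested. The library kit is not stated to mark strand, so intron reads of a gene and of transcripts antisense to it cannot be told apart.

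Around the 10 genes, 11 lists of related genes were examined for the response to LPS, and of their tested genes 17 of 128 (13.3%) passed in CD18fl/fl and 11 of 131 (8.4%) in CD18ΔCD11c, beside 3.89% and 3.99% of all genes. Of the genes that regulate NRF2, 2 of 15 rose in CD18fl/fl (Keap1 and Sqstm1, an autophagy adaptor that binds KEAP1, at a log2 fold change of 1.61) and 0 of 16 in CD18ΔCD11c. Sqstm1 was at 1012, 723 and 369 CPM untreated and 2107, 1718 and 1114 CPM with LPS in CD18ΔCD11c. In glutathione synthesis and cystine supply, Gss, glutathione synthetase, rose in both genotypes, with log2 fold changes of 2.08 ± 0.41 in CD18fl/fl (adjusted p = 0.0443) and 1.62 ± 0.35 in CD18ΔCD11c (adjusted p = 0.0498). Ggt1, the other gene of that list that passed in CD18fl/fl, was near the floor, at up to 0.0535 CPM untreated and 0.610 to 2.50 CPM with LPS. Among 22 genes of glutathione use, Gstm1 and Esd rose in CD18fl/fl and Esd in CD18ΔCD11c, at log2 fold changes of 1.17, 1.97 and 1.64, and 0 fell. Gstm1 did not pass in CD18ΔCD11c, at 19, 49.9 and 46.9 CPM untreated and 83.8, 106 and 66.8 CPM with LPS.

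In the thioredoxin list, 2 of 15 genes rose and 1 fell in each genotype. Txn1, cytosolic thioredoxin and the substrate of Txnrd1, rose in both (log2 fold change 1.68 ± 0.27, adjusted p = 0.0267 in CD18fl/fl, and 1.28 ± 0.25, adjusted p = 0.0418 in CD18ΔCD11c). Prdx5, another peroxiredoxin, also rose in both (1.82 ± 0.26, adjusted p = 0.02, and 1.61 ± 0.24, adjusted p = 0.0229). Sesn1, a stress-induced sestrin, fell in CD18fl/fl by 1.58 on the log2 scale, and Txn2, mitochondrial thioredoxin, fell in CD18ΔCD11c by 1.09. Neither passed in the other genotype. There Sesn1 was at 16.5, 24.9 and 13.8 CPM untreated and 6.56, 5.7 and 8.55 CPM with LPS (CD18ΔCD11c). Txn2 was at 62.3, 63.5 and 65.4 CPM untreated and 41.6, 43.1 and 28.6 CPM with LPS (CD18fl/fl).

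Of 11 genes for NADPH supply, Me1, cytosolic malic enzyme, rose in CD18fl/fl (log2 fold change 1.99 ± 0.37, adjusted p = 0.0388), the isocitrate dehydrogenases Idh1 and Idh2 fell (-1.43 and -1.33), and 0 passed in CD18ΔCD11c. The differences there were 2.01 for Me1, -1.40 for Idh1 and -1.50 for Idh2, and all 3 passed with the block (adjusted p = 0.0241, 0.0046 and 0.0034). In quinone, carbonyl and xenobiotic metabolism, Nqo2 was the gene that passed among 14 in CD18fl/fl. In CD18ΔCD11c, Akr1b3, an aldose reductase, fell by 1.36 on the log2 scale beside Nqo2. Adh7, an alcohol dehydrogenase, rose there from 0 reads in all untreated libraries to 35 to 842 reads. The mean of its LPS libraries was at least 148-fold above a floor of 3 reads per library. Replicate 3 was far lower than the others (34.1, 19.5 and 1.13 CPM in replicates 1, 2 and 3). In CD18fl/fl, Adh7 was left untested by the filter on low counts, at 0, 0 and 0.16 CPM untreated and 16.6, 17.6 and 0.127 CPM with LPS, high in replicates 1 and 2 and not in replicate 3. Akr1b3 did not pass in CD18fl/fl, at 109, 86.4 and 76.7 CPM untreated and 42.9, 43.8 and 42.8 CPM with LPS. Abcc5, an exporter, was the gene of 6 in drug and conjugate export that passed in CD18fl/fl (log2 fold change 1.64), with 0 in CD18ΔCD11c. Its CD18ΔCD11c values were 12, 19.8 and 35 CPM untreated and 43.6, 55.8 and 63.5 CPM with LPS. Ucp2, a mitochondrial carrier, fell in both genotypes (-1.998 and -2.25), and Sod2, mitochondrial superoxide dismutase, rose in CD18ΔCD11c (2.44 ± 0.50, adjusted p = 0.045), with 2.71 ± 0.66 in CD18fl/fl (adjusted p = 0.0727). Of the ATF4 amino acid stress genes, Nupr1 rose in CD18fl/fl and Atf3 in CD18ΔCD11c (log2 fold changes 2.68 and 2.17). In the other genotype their log2 differences were similar, 2.63 for Nupr1 in CD18ΔCD11c (adjusted p = 0.0551, and 0.00234 with the block) and 2.40 for Atf3 in CD18fl/fl (adjusted p = 0.0765, and 0.00569 with the block). The medians of this list were -0.87 in CD18fl/fl and -0.34 in CD18ΔCD11c, and -0.39 and 0.15 with the block. Acod1, which makes itaconate, was measured at 2.47, 2.08 and 25.2 CPM untreated and 544, 359 and 696 CPM with LPS in CD18fl/fl (log2 fold change 5.76 ± 1.13, adjusted p = 0.0442). In CD18ΔCD11c it did not pass, at 4.31, 2.27 and 59.4 CPM untreated and 479, 436 and 560 CPM with LPS. Over all 11 lists, which hold 136 genes beside the 10, 12 genes rose and 5 fell in CD18fl/fl and 7 rose and 4 fell in CD18ΔCD11c. With the replicate block 19 rose (14.8%) and 12 fell (9.38%) in CD18fl/fl, beside 6.33% and 6.43% of all genes, and 28 rose (21.4%) and 20 fell (15.3%) in CD18ΔCD11c, beside 10.2% and 9.93%. The medians of these 11 lists lay between -0.87 and 0.64 in CD18fl/fl and between -0.43 and 0.44 in CD18ΔCD11c, below the 1.51 and 1.34 of the 10 genes, which were chosen with such values known.

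**Figure D5:**
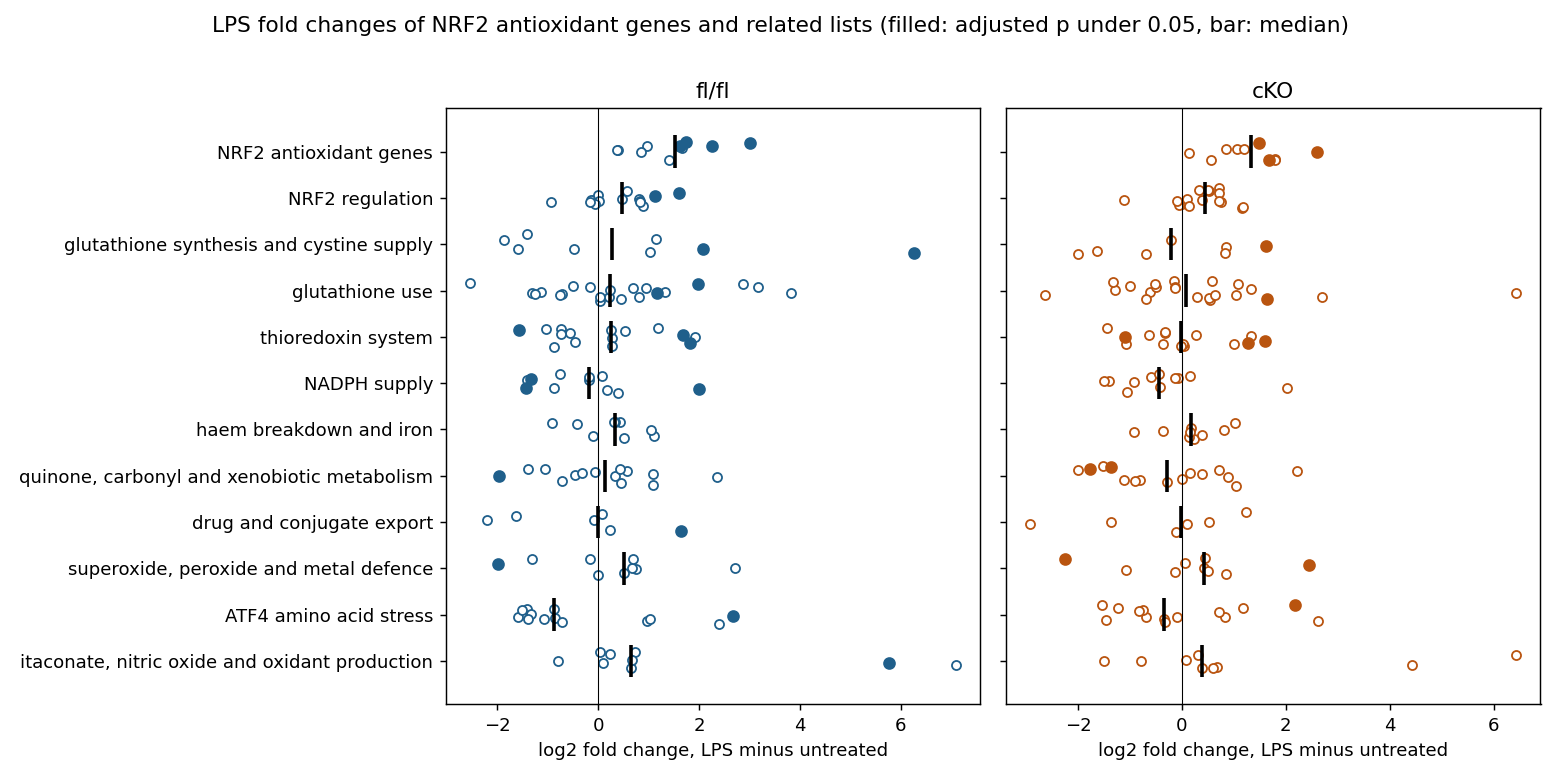
Log2 fold change with LPS for each tested gene of the 10 NRF2 antioxidant genes and of 11 related lists in CD18fl/fl (left) and CD18ΔCD11c (right, cKO). Filled points have an edgeR adjusted p under 0.05 and bars are list medians, with Adh7 left out on the right because all its untreated libraries had 0 reads, and not tested on the left. The median of the 10 genes was 1.51 on the left and 1.34 on the right, and those of the other lists lay at or below 0.64.

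Between genotypes 0 genes of these 11 lists passed without the block in either state, and 0% of all genes did. With the block, 24 of 128 were higher (18.8%) and 14 lower (10.9%) in CD18ΔCD11c without LPS, beside 12.1% and 8.16% of all genes, and 10 of 129 were higher (7.75%) and 14 lower (10.9%) with LPS, beside 6.98% and 3.16%. The genes with the smallest p were Glrx3, a glutaredoxin, in glutathione use without LPS (log2 difference 1.36 ± 0.20, adjusted p = 0.0861, and 0.00318 with the block) and Selenof, a selenoprotein of the endoplasmic reticulum, in the thioredoxin list (1.26 ± 0.19, adjusted p = 0.0861, and 0.00318 with the block). With LPS, Bach1 had the smallest p among regulators and Mgst3, a microsomal glutathione transferase, that among genes of glutathione use (1.31 ± 0.26, adjusted p = 0.286, and 0.0124 with the block). Ftl1, the ferritin light chain, had a log2 difference of -0.72 ± 0.28 with LPS (adjusted p = 0.492, and 0.0225 with the block). Its list, haem breakdown and iron, was mixed in this comparison, with 4 of 9 differences positive and 5 negative. The list median was -0.12, against -0.11 over all genes.

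Levels of the 10 genes were compared across the 12 libraries by Pearson's r of their log2 CPM, as a description of libraries that share groups and replicate numbers. The highest value was that of Hmox1 with Srxn1 (r = 0.961, n = 12 libraries), and the lowest that of Gclc with Gsr (r = 0.0503). Within groups, that is after subtracting group means, Gclc and Gsr went in opposite directions (r = -0.946), and replicate 3 was the lowest for Gclc and the highest for Gsr in each group. Over all tested genes, Hmox1 was most like Gde1 (r = 0.989), Dnajb4 (0.981) and Nr4a2 (0.963). Slc7a11 was most like Zdhhc18 (0.972), Awat1 (0.963, at 0 to 5.13 CPM) and Ppfibp2 (0.959), and Nfe2l2 was most like Gosr1 (0.948), Tlr6 (0.947) and Mapk6 (0.945).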

How the data were processed

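MHCII-positive BMDCs of both genotypes, with or without LPS, were profiled by RNA-seq. According to the study's methods and the labels, poly(A)-selected libraries (NEBNext Ultra II, PCR amplified, no molecular identifiers) were sequenced single-end, and the authors used CLC Genomics Workbench (default settings) for mapping to GRCm39 and for counting, whereas the submitters' processing notes name GRCm38. The gene regions in the files match GRCm39, and the annotation release is not given in the sources used here. The authors deposited raw counts per gene (total, unique, exon, intron and exon-exon reads) without normalization, and TPM values scaled by exon length and library total. Total gene reads, 29689149 to 34037178 per library, were tested in edgeR 4.0.16 (R 4.3.3) by the quasi-likelihood test after filterByExpr (minimum count 10) and TMM scaling, on the 6 libraries of each comparison or all 12 for the interaction, with Benjamini-Hochberg adjustment over all genes and a threshold of 0.05. SE is the log2 fold change divided by the square root of F.

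Groups and replicate numbers came from the library labels. Deviations from group means of same-numbered libraries correlated at 0.248 to 0.672 over 13752 genes in all 4 pairs of groups (0.248 to 0.387 for replicates 1 and 2, whose highest correlation with another number was 0.136 to 0.292, and 0.504 to 0.672 for replicate 3, against -0.439 to -0.293), so a replicate block was run as an alternative, as were DESeq2 1.42.0, other scalings, filters and read types, a length offset (lowess, span 0.3), replicates 1 and 2 alone and leaving out each library. The 10 genes and all lists were chosen with earlier results of these data known. Named from the lists were up to 4 genes per list and comparison past the threshold with the smallest adjusted p, or up to 2 with the smallest p where none passed, and the 3 genes most like Hmox1, Slc7a11 and Nfe2l2. Ddit3 of the ATF4 list was not analysed here. Lists were described by counts and medians only. Procedures were tested on simulated data. Sequences were read from GRCm39 with GENCODE start sites.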

Additional observations from a re-analysis of the deposited data

How the results depend on the processing

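Each count of the 10 genes past the threshold is followed by the share of all genes past it under the same setting. For LPS in CD18fl/fl, 4 (3.89%) passed, against 3 (3.51%) with library size scaling, 5 (7.77%) by edgeR fitted on all 12 libraries, 5 (3.65%) with no filter on low counts, 6 (12.8%) by DESeq2, 6 (12.8%) with the replicate block, 6 (14%) with the block and a length offset, 9 (47.5%) with replicates 1 and 2 alone, 7 (22.7%) by DESeq2 with the block and 5 (12.7%) with library size scaling and the block. For LPS in CD18ΔCD11c, 3 (3.99%) passed, against 2 (3.04%) on exon-exon reads, 5 (7.15%) by edgeR fitted on all 12 libraries, 5 (4.2%) with no filter on low counts, 6 (10.7%) by DESeq2, 7 (20.2%) with the replicate block, 7 (20.1%) with the block and a length offset, 7 (15.9%) with replicates 1 and 2 alone, 7 (24.2%) by DESeq2 with the block and 7 (21.7%) with library size scaling and the block. Leaving out 1 library at a time gave 0 to 6 in each genotype. Between genotypes without LPS, 0 (0%) passed, against 1 (6.03%) by DESeq2, 3 (20.2%) with the replicate block, 3 (12.1%) with the block and a length offset, 2 (10.6%) with replicates 1 and 2 alone, 4 (26.4%) by DESeq2 with the block and 8 (35.6%) with library size scaling and the block. Between genotypes with LPS, 0 (0%) passed, against 0 (1.3%) by DESeq2, 3 (10.1%) with the replicate block, 2 (7.13%) with the block and a length offset, 1 (4.22%) with replicates 1 and 2 alone, 4 (17.1%) by DESeq2 with the block and 8 (21.2%) with library size scaling and the block. The interaction had 0 of 10 under every alternative run. The replicate block changed no other call of the 10 genes than those given beside the results. Some differences near 0 changed sign. Gsr for LPS in CD18fl/fl was -0.0567 with library size scaling and the block. Nfe2l2 for LPS in CD18ΔCD11c was -0.0797 with library size scaling, -0.0786 with the block added and -0.0995 on exon-exon reads. Gclm between genotypes without LPS was 0.0165 with the block and a length offset and 0.0109 with replicates 1 and 2 alone. The interaction of Srxn1, 0.00287 as reported, was -0.0633 by DESeq2, -0.0632 with RLE size factors, -0.00313 without a filter, -0.11 with a minimum count of 30, -0.0218 with the replicate block, -0.0468 with the block and a length offset and -0.0851 by DESeq2 with the block. The interaction of Nqo1 was -0.14 with replicates 1 and 2 alone. With 1 library left out, the log2 differences that changed sign ranged from -0.17 to 0.59 for Gsr for LPS in CD18fl/fl, from -0.52 to 0.19 for Gclm between genotypes without LPS, from -0.45 to 0.0929 for Txnrd1 between genotypes without LPS, from -0.0389 to 0.63 for Prdx1 between genotypes with LPS, and the interactions from -0.64 to 0.17 for Gclm, from -0.20 to 0.64 for Gclc, from -0.36 to 0.22 for Srxn1, from -0.85 to 0.56 for Nqo1, from -0.0519 to 0.66 for Gsr, from -0.76 to 0.0126 for Hmox1, from -0.55 to 0.12 for Slc7a11, from -0.48 to 0.18 for Txnrd1. The causes were not tested. Exon-exon reads, DESeq2 with the block and library size scaling with the block were chosen after seeing the data. The lowest total among the 10 genes was 395 reads in a library.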
